A study of Mus musculus with 6 samples.

Results

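The genes described here are 48 genes of the endoplasmic reticulum (ER) stress response and the integrated stress response, taken by name from a list. The list was drawn up with earlier results of these data known, and no threshold on a measured value decided which genes it holds. Of these, 47 had a probe set in the table and 1, Eif2s1, was not analysed here, against 18193 genes with a probe set in all. All 47 had enough signal to be tested, among 12742 genes tested. Where a gene had several probe sets, the brightest on average over the 6 arrays stood for it.

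The platform was the Mouse Genome 430 2.0 array of Affymetrix, on which sets of short oligonucleotides report the abundance of mouse transcripts. The cells were R1, a line of mouse embryonic stem cells. The tested cells carried a lentivirus with the first short hairpin RNA (shRNA) against KIAA1718, the protein encoded by Kdm7a, a histone demethylase (3 arrays, called KIAA1718 shRNA1 cells). The control cells carried a lentivirus with an shRNA against luciferase, which mammalian cells do not encode (3 arrays, called luciferase shRNA cells). Both populations were sorted for GFP before total RNA was extracted. Each group rests on a single shRNA, so off-target effects of that hairpin and loss of KIAA1718 cannot be told apart. The labels do not state whether replicates were infected or grown separately, and the p-values therefore reflect only the variation among these 6 samples, possibly technical. The target itself did not pass the test: Kdm7a had normalized signals of 42.2, 23.0 and 30.2 in KIAA1718 shRNA1 cells, against 38.5, 37.0 and 39.2 in luciferase shRNA cells (adjusted p = 0.534, limma). These are values of the brightest of 5 Kdm7a probe sets, and the others are not given here. The signals were dim, close to the 16 added before log2, which understates a change. The target thus gave no check of the labels, and the groups are named as labelled.

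Secreted and membrane proteins fold in the ER with the help of chaperones, of enzymes that form and rearrange disulfide bonds, and of a degradation route that returns failed proteins to the cytosol. When unfolded proteins gather there, the sensors Ire1 (Ern1), Atf6 and Perk (Eif2ak3) start the unfolded protein response, in which spliced Xbp1 and cleaved Atf6 raise the transcription of chaperone genes. Perk also belongs to the family of kinases that phosphorylate the translation initiation factor eIF2, along with Gcn2 (Eif2ak4), which senses uncharged tRNA, and Hri (Eif2ak1), which senses low haem. Phosphorylated eIF2 lowers protein synthesis in general and raises translation of Atf4, whose targets make and load amino acids; this branch is the integrated stress response. The ER chaperones thus report mainly on the Ire1 and Atf6 arms, and the Atf4 targets on the eIF2 arm, to which Perk belongs.

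The promoters of the 2 groups differ in the short motifs known from each arm, and the sites are shown so that the groups can be compared by sequence as well as by signal. RefSeq promoters (GRCm38.p6, 250 bases before to 50 after the gene start) were held for 41 of the 48 genes. The ER stress element, CCAAT and CCACG with any 9 bases between them, searched on both strands, was found in 7 of 13 chaperone promoters, in 0 of 12 promoters of Atf4 targets and in 0.137% of the 27025 genes in the promoter table. Capitals below mark its fixed letters (the reverse complement where the site lies on the other strand), with 8 bases on either side.
Hspa5 (chr2:34772017-34772051, plus strand): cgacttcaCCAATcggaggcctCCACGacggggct
Calr (chr8:84847067-84847101, minus strand): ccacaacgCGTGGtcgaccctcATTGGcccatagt
Hsp90b1 (chr10:86705630-86705664, minus strand): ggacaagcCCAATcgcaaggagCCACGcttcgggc
Hsp90b1 (chr10:86705525-86705559, minus strand): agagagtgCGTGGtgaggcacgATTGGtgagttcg
Canx (chr11:50325792-50325826, minus strand): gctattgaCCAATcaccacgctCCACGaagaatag
Pdia6 (chr12:17266483-17266517, plus strand): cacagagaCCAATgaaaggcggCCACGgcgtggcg
Dnajc3 (chr14:118937819-118937853, plus strand): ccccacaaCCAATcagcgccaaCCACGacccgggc
Creld2 (chr15:88819512-88819546, plus strand): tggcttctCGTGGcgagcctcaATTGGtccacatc
The degradation gene Syvn1 held the element too.
Syvn1 (chr19:6046524-6046558, plus strand): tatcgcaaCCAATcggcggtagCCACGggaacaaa
A related compact form, ATTGG and CCACG with any 1 base between them, searched on both strands, was found in Dnajb11 and Herpud1 and in 0.0444% of all genes.
Dnajb11 (chr16:22857844-22857870, plus strand): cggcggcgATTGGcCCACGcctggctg
Herpud1 (chr8:94386369-94386395, plus strand): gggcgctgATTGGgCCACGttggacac

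The C/EBP-ATF response element, TGATGNAA, through which Atf4 acts, was found on either strand in 6 of 12 promoters of Atf4 targets, in 0 of 13 chaperone promoters and in 4.51% of all genes. Of the remaining genes, Atf3 and Herpud1 held it as well. One site is shown for Aars, which held a further one near its gene start. Capitals mark its fixed letters or their reverse complement, and 8 bases stand on either side.
Chac1 (chr2:119351041-119351064, plus strand): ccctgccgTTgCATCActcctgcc
Trib3 (chr2:152344031-152344054, minus strand): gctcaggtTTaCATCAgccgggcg
Asns (chr6:7693217-7693240, minus strand): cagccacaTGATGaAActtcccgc
Gars (chr6:55037963-55037986, plus strand): ctgcgctaTTtCATCAtgcaccgg
Aars (chr8:111033722-111033745, plus strand): cttgagcaTTgCATCAgccgagcc
Vldlr (chr19:27216812-27216835, plus strand): agcaatagTTgCATCAgcgctcct
A match describes letters in a window, and binding was not measured here. The lists were drawn from genes known to respond to these pathways, so the motifs are a description of the lists.

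Few of these genes differed between the groups. P4hb, an ER disulfide isomerase, rose in KIAA1718 shRNA1 cells, and Ppp1r15b, a subunit of the phosphatase that reverses eIF2 phosphorylation, fell. The other 45 genes did not pass. P4hb is thus 1 of 47 genes higher, beside a background of 2.66% of all genes tested, and Ppp1r15b is 1 of 47 lower, beside a background of 2.17%. Both together make 4.26% of the stress response genes, against 4.83% of all genes, so the share that changed lay near the background. A gene passed at a Benjamini-Hochberg adjusted p under 0.05 in limma over all probe sets tested. Differences are KIAA1718 shRNA1 minus luciferase shRNA on the log2(signal + 16) scale, which understates changes of dim genes, and signals are intensities after quantile normalization between arrays.

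The median log2 difference of the 47 genes was -0.01, and that of all genes tested was 0.00023. Normalized signals did not overlap between the groups for 8 genes that were higher and 8 that were lower in KIAA1718 shRNA1 cells. Each of these is 17% of the 47 genes, against 14.5% and 13.4% of all genes tested. At an unadjusted p under 0.05, 6 of the 47 genes were higher and 5 lower, against 1435 higher and 1373 lower of all 12742 genes tested, and the unadjusted counts given below for smaller groups are read against these. The replicate numbers, shared by both groups, paired the arrays by the correlation of their deviations. With replicate number as a block, Canx and P4hb were higher, against a background of 4.07%, and Shmt2 and Ppp1r15b were lower, against a background of 3.83%. The median spread between replicates of a group was 0.126 (SD, log2) for these genes and 0.147 for all genes. The 95% interval of the difference lay within 0.5 of 0 for 31 of the 47 genes and within 1 for all 47, so for none of them did the interval reach a 2-fold change on this scale in either direction.

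**Figure D1:**
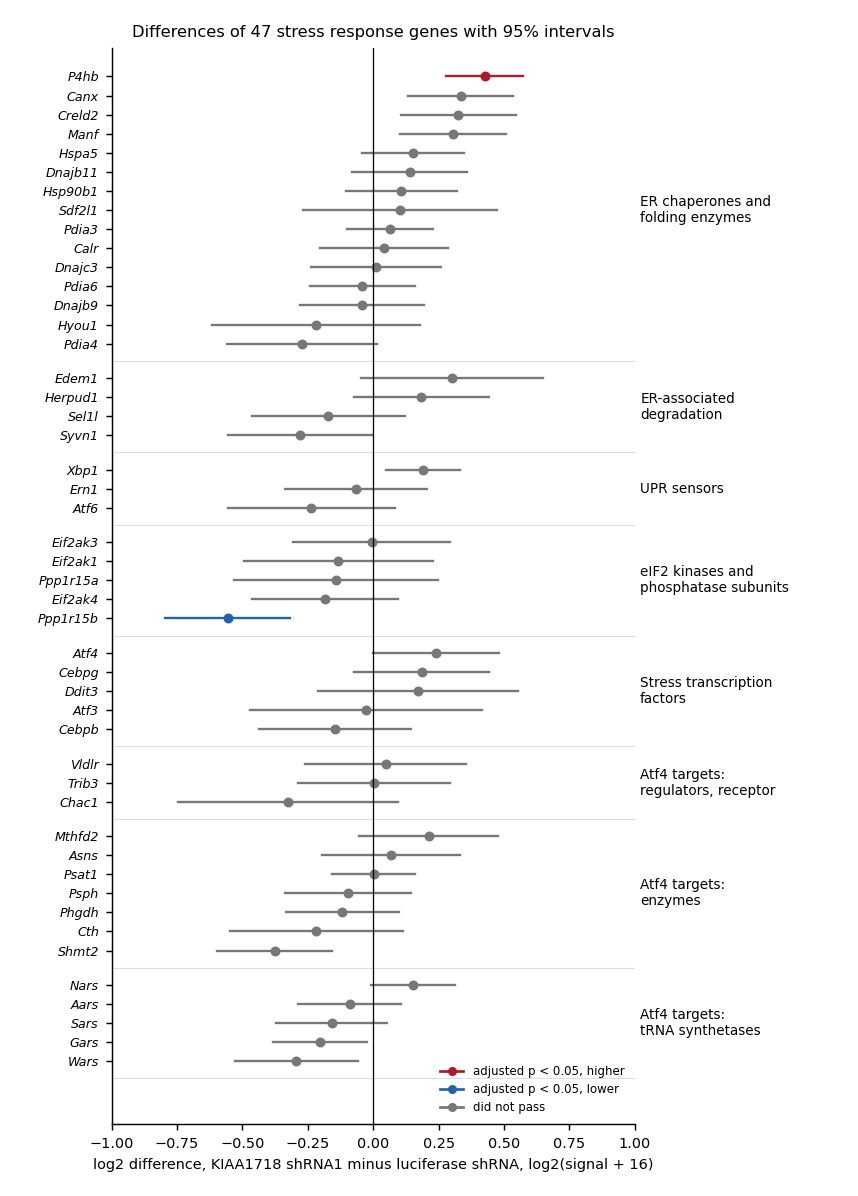
Log2 difference (KIAA1718 shRNA1 minus luciferase shRNA, log2(signal + 16) scale, horizontal axis) of the 47 genes by role, with limma's 95% interval as a line. P4hb at 0.43 is the one gene that passed above 0 and Ppp1r15b at -0.56 the one that passed below it; the intervals of all 47 lie between -1 and 1.

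Of the 15 chaperones and folding enzymes of the ER, 1 rose (6.67%, against 2.66% of all genes tested), 0 fell and 14 did not pass. At an unadjusted p under 0.05 (limma), 4 of the 15 were higher and 0 lower. Groups did not overlap for 5 that were higher (33.3%) and 1 that was lower (6.67%), against 14.5% and 13.4% of all genes tested. P4hb, the protein disulfide isomerase that also serves as the beta subunit of collagen prolyl 4-hydroxylase, had normalized signals of 1979, 1851 and 1844 in KIAA1718 shRNA1 cells, against 1356, 1360 and 1498 in luciferase shRNA cells. The lowest KIAA1718 shRNA1 array lay above the highest luciferase shRNA array. The log2 difference was 0.43 ± 0.07 (SE), a fold of 1.34 (adjusted p = 0.00654, limma). Leaving out any 1 array gave 0.39 to 0.47 and kept the call. The call was lost with median scaling of the arrays (0.34, adjusted p = 0.105) and without the intensity trend in the variance (adjusted p = 0.0757).

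The promoter of P4hb (GRCm38.p6, chr11:120573204-120573503, minus strand) held no ER stress element by the letters searched, though a CCAAT and a CCACG stood 6 bases apart near its gene start, where the element has 9. It is printed because P4hb is the chaperone that passed. Capitals mark CCAAT and CCACG.
P4hb promoter: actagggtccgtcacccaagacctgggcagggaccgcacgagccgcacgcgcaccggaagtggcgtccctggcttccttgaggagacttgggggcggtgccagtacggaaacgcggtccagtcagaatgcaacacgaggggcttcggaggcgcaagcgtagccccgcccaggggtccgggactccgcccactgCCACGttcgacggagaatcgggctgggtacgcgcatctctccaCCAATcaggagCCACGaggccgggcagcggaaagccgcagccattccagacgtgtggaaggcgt

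Canx, Manf and Creld2 came nearest to the threshold among the remaining chaperones. Canx encodes calnexin, the membrane-bound lectin chaperone of glycoproteins, and had signals of 1238, 1233 and 1416 in KIAA1718 shRNA1 cells, against 1154, 988 and 938 in luciferase shRNA cells. The groups did not overlap, and the log2 difference of 0.33 had an adjusted p of 0.0701, or 0.0467 with replicate number as a block. It also passed without luciferase replicate 1 (0.42, adjusted p = 0.0373). Its further probe sets differed by 0.52 (adjusted p = 0.172) and 0.44 (adjusted p = 0.0785). Manf, a small secreted ER protein that protects cells under ER stress, had 794, 907 and 849 in KIAA1718 shRNA1 cells, against 720, 611 and 729 in luciferase shRNA cells. Its groups did not overlap either, at a difference of 0.30 (adjusted p = 0.0974). Creld2, an ER protein with disulfide isomerase motifs, had 295, 316 and 282 in KIAA1718 shRNA1 cells, against 234, 246 and 223 in luciferase shRNA cells, again without overlap (difference 0.33, adjusted p = 0.102). With the tested probe sets of each gene averaged, Creld2 and Canx passed (adjusted p = 0.0448 and 0.0367).

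The chaperones most used as readouts of ER stress did not pass. Hspa5, which encodes BiP, the ER Hsp70 that holds the sensors inactive, had 2377, 2439 and 2356 in KIAA1718 shRNA1 cells, against 2265, 2404 and 1820 in luciferase shRNA cells. The groups overlapped, and luciferase replicate 3 was the low array. The difference of 0.15 had a 95% interval of -0.04 to 0.35 (adjusted p = 0.390), and it was 0.03 without luciferase replicate 3 and 0.23 without luciferase replicate 2. Hsp90b1, the ER Hsp90 known as Grp94, had 1139, 1323 and 1309 in KIAA1718 shRNA1 cells, against 1111, 1058 and 1340 in luciferase shRNA cells. Its groups overlapped as well (difference 0.11, interval -0.10 to 0.32, adjusted p = 0.605), and the value ran from 0.04 without luciferase replicate 2 to 0.21 without luciferase replicate 3. Pdia4, another disulfide isomerase, lay in the opposite direction without overlap, at 43.6, 43.7 and 35.0 in KIAA1718 shRNA1 cells and 49.8, 58.8 and 48.9 in luciferase shRNA cells, and did not pass (difference -0.27, adjusted p = 0.290).

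The other 8 genes of this group were Calr (calreticulin, the soluble relative of calnexin), the disulfide isomerase genes Pdia3 and Pdia6, Sdf2l1, the J-domain co-chaperone genes Dnajb9, Dnajb11 and Dnajc3, and the Hsp70-like nucleotide exchange factor gene Hyou1, which together ran from -0.22 (Hyou1) to 0.14 (Dnajb11). Hyou1 was low on 1 array, at 135, 78.3 and 141 in KIAA1718 shRNA1 cells and 142, 147 and 121 in luciferase shRNA cells. The 8 chaperone genes with an ER stress element of either form had a median difference of 0.12, and 0 of them passed.

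Cells of another type can add to chaperone signals in a bulk sample, and fewer cells of a type and less RNA per cell cannot be told apart. Embryonic fibroblasts, often used as feeders and rich in collagen-processing enzymes, were followed through 24 markers. Their summed signal was 7567 to 10020 in KIAA1718 shRNA1 cells and 7906 to 13270 in luciferase shRNA cells, with 0 of 24 past the threshold, 6 lower at an unadjusted p under 0.05 and 0 higher. The 2 lowest in p were Thy1 and Col1a1, which differed by -0.62 and -1.535 without passing (adjusted p = 0.0574 and 0.0714, limma). Within each replicate number the sum was lower in KIAA1718 shRNA1 cells. With the replicate number as a block, 8 of 24 markers were lower and 0 higher, against 3.83% and 4.07% of all genes tested. Thy1 and Col1a1 were among the 8 (adjusted p = 0.0425 and 0.0173). So were Col3a1 and S100a4 (adjusted p = 0.0172 and 0.0058), chosen after their values were seen. The cells had been sorted for GFP, and the fibroblast sum was lowest on replicate 1 in both groups. Primitive endoderm, an extraembryonic layer that secretes basement membrane, was followed through 15 markers. Their sum was 2035 to 2170 in KIAA1718 shRNA1 cells and 2206 to 3258 in luciferase shRNA cells. Of the 15, 6 were lower (40%, against 2.17% of all genes tested) and 0 higher. Srgn, Sox7, Lamc1 and Pdgfra differed by -1.07, -0.85, -0.84 and -0.71 (adjusted p = 0.00231, 0.00834, 0.0119 and 0.0263, limma). Sox7 and Pdgfra were dim, at means of 12.7 and 7.43 in KIAA1718 shRNA1 cells. All 12 embryonic stem cell markers had enough signal to be tested, with sums of 12790 to 13540 and 14680 to 14910 in KIAA1718 shRNA1 and luciferase shRNA cells. Of the 12, 3 were lower (25%, against 2.17% of all genes tested) and 0 higher. The 3 were Esrrb, Fgf4 and Utf1, at -1.16, -0.72 and -0.44 (adjusted p = 0.00404, 0.00332 and 0.0245, limma). The part of these differences in the chaperone signals was not tested.

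**Figure D2:**
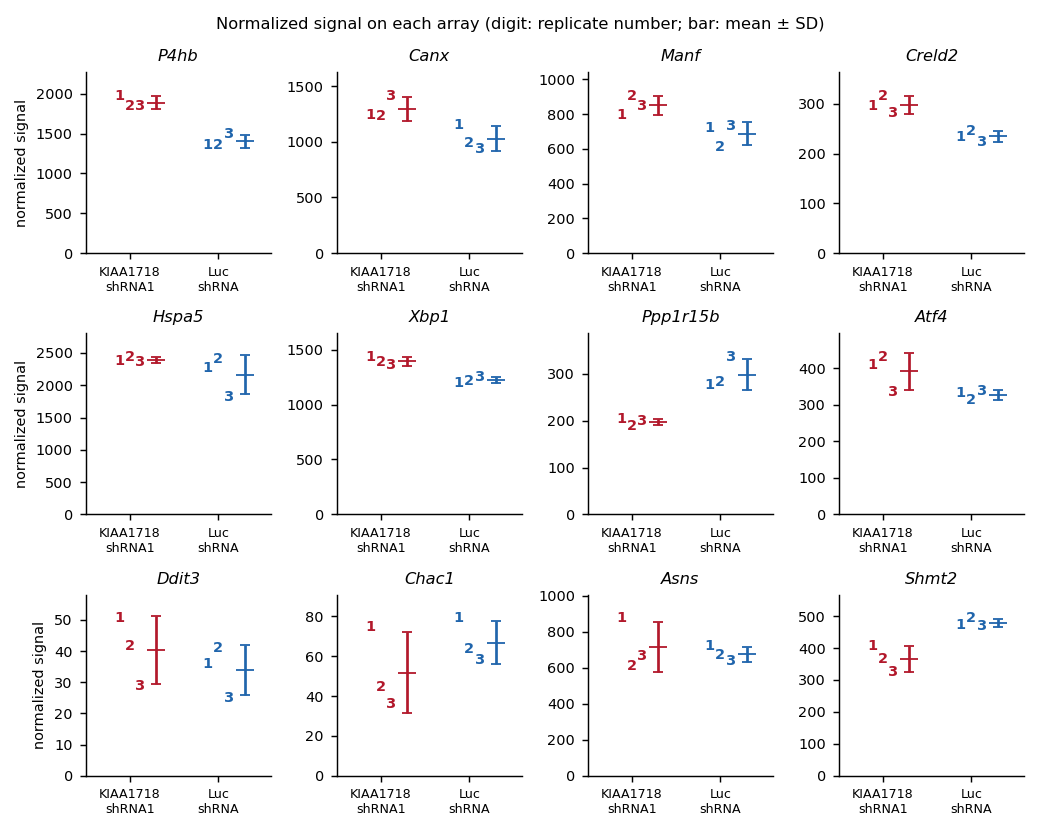
Normalized signal (vertical axes from 0, linear) of 12 genes on each array, KIAA1718 shRNA1 on the left and luciferase shRNA on the right of each panel, digits giving the replicate number and bars the mean ± SD of 3 arrays. P4hb sits at 1844 to 1979 in KIAA1718 shRNA1 cells against 1356 to 1498 in luciferase shRNA cells, Ppp1r15b at 190 to 204 against 277 to 336, and the groups of Ddit3, Chac1 and Asns overlap.

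Genes of ER-associated degradation lay 2 above and 2 below 0, and 0 of 4 passed (limma, with 1 lower at an unadjusted p under 0.05). Edem1, a lectin that passes misfolded glycoproteins to degradation, had 178, 178 and 242 in KIAA1718 shRNA1 cells, against 138, 198 and 141 in luciferase shRNA cells. The Edem1 groups overlapped (difference 0.30, adjusted p = 0.342), and a further probe set differed by -0.08. The Edem1 value was 0.16 without KIAA1718 shRNA1 replicate 3 and 0.455 without luciferase replicate 2. Syvn1, the ubiquitin ligase Hrd1, had 192, 149 and 198 in KIAA1718 shRNA1 cells, against 237, 222 and 202 in luciferase shRNA cells, without overlap (difference -0.28, adjusted p = 0.259, and -0.16 without KIAA1718 shRNA1 replicate 2). Its partner gene Sel1l differed by -0.17 (adjusted p = 0.542) and Herpud1, which helps assemble the ligase complex, by 0.18 (adjusted p = 0.445). A further Herpud1 probe set of similar signal differed by -0.01, and those of Sel1l ran from -0.12 to 0.09.

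None of the 3 genes of the Ire1 and Atf6 branches passed (limma, with 1 higher at an unadjusted p under 0.05). Xbp1, whose mRNA Ire1 splices, had 1434, 1386 and 1359 in KIAA1718 shRNA1 cells, against 1194, 1218 and 1247 in luciferase shRNA cells. The groups did not overlap, but the difference of 0.19 (interval 0.05 to 0.33) had an adjusted p of 0.135. Its further probe sets differed by 0.22, 0.01 and 0.11. The arrays do not separate spliced from unspliced Xbp1. Ern1, which encodes Ire1 itself, differed by -0.07 (adjusted p = 0.827) and Atf6 by -0.24 (adjusted p = 0.421).

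Among the genes that set eIF2 phosphorylation, 1 of 5 fell (20%, against 2.17% of all genes tested) and 0 rose. At an unadjusted p under 0.05 (limma), 1 was lower and 0 higher. All 5 lay below 0, and groups did not overlap for 2 that were lower (40%, against 13.4% of all genes tested). Ppp1r15b, the constitutive regulatory subunit that directs protein phosphatase 1 to eIF2, had normalized signals of 204, 190 and 199 in KIAA1718 shRNA1 cells, against 277, 283 and 336 in luciferase shRNA cells. The groups did not overlap, and the log2 difference was -0.56 ± 0.11 (SE), with a 95% interval of -0.79 to -0.32 (adjusted p = 0.0194, limma). It was lower in all 3 KIAA1718 shRNA1 arrays than in any luciferase shRNA array, and a dimmer probe set of the gene differed by -0.47 (adjusted p = 0.224). The call was lost without KIAA1718 shRNA1 replicate 2 (adjusted p = 0.0521), without KIAA1718 shRNA1 replicate 3 (0.0728), without luciferase replicate 3 (0.102), with unscaled arrays (0.291) and with no filter on low values (0.0507). The value ran from -0.61 to -0.41 over these and the remaining alternatives.

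Ppp1r15a, the stress-inducible counterpart known as Gadd34, had 181, 98.4 and 114 in KIAA1718 shRNA1 cells, against 155, 134 and 138 in luciferase shRNA cells. Its groups overlapped (difference -0.14, interval -0.53 to 0.25, adjusted p = 0.726). The kinase genes did not pass: Eif2ak3 differed by -0.01 (adjusted p = 0.991), Eif2ak1 by -0.13 (adjusted p = 0.725) and Eif2ak4 by -0.18 (adjusted p = 0.481).

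Of the 5 transcription factors of the response, 0 passed (limma, with 1 higher at an unadjusted p under 0.05). Atf4, whose activity is set mainly by translation, had 410, 431 and 334 in KIAA1718 shRNA1 cells, against 333, 312 and 337 in luciferase shRNA cells. The groups overlapped through KIAA1718 shRNA1 replicate 3, at a difference of 0.24 (interval 0.001 to 0.48, adjusted p = 0.264), and a further probe set differed by 0.35 (adjusted p = 0.0887). Ddit3, which encodes the pro-apoptotic factor Chop, had 50.5, 41.6 and 28.7 in KIAA1718 shRNA1 cells, against 35.7, 40.8 and 24.96 in luciferase shRNA cells. The groups overlapped (difference 0.17, interval -0.21 to 0.55, adjusted p = 0.661). The Ddit3 value was 0.04 without KIAA1718 shRNA1 replicate 1 or without luciferase replicate 3, 0.33 without KIAA1718 shRNA1 replicate 3 and 0.27 without luciferase replicate 2. Atf3 differed by -0.03 (adjusted p = 0.963), Cebpb by -0.15 (adjusted p = 0.608) and Cebpg, a dimer partner of Atf4, by 0.19 (adjusted p = 0.438). Atf3 ran from 21.7 to 51.3 within the luciferase shRNA arrays alone.

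The Atf4 targets were 3 stress regulators and receptors, 7 enzymes and 5 aminoacyl-tRNA synthetases, and 0 of 15 passed (limma, with 3 lower and 0 higher at an unadjusted p under 0.05). Groups did not overlap for 1 that was higher (6.67%) and 4 that were lower (26.7%), against 14.5% and 13.4% of all genes tested. Chac1, an enzyme that breaks down glutathione, had 74.6, 44.5 and 35.98 in KIAA1718 shRNA1 cells, against 79.1, 63.5 and 57.9 in luciferase shRNA cells. The groups overlapped through replicate 1, and the difference of -0.32 had an interval of -0.75 to 0.10 (adjusted p = 0.401). It was -0.56 without KIAA1718 shRNA1 replicate 1 and -0.155 without KIAA1718 shRNA1 replicate 3. Trib3, a pseudokinase that restrains Atf4, had 54.2, 54.7 and 55.6 in KIAA1718 shRNA1 cells, against 61.8, 58.7 and 44.8 in luciferase shRNA cells. Its difference was 0.00213 (interval -0.29 to 0.29, adjusted p = 0.996), whereas its other probe set differed by -0.43 (adjusted p = 0.264), so the probe sets of Trib3 disagree. Leaving out 1 array gave -0.11 to 0.07 for the brighter one, which thus had no settled sign. The lipoprotein receptor gene Vldlr differed by 0.05 (adjusted p = 0.899), at signals of 14.5 to 21.9 over all 6 arrays, near the pseudocount of 16.

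Among the enzymes, Asns, the asparagine synthetase, had 874, 609 and 664 in KIAA1718 shRNA1 cells, against 719, 670 and 636 in luciferase shRNA cells. The groups overlapped (difference 0.07, interval -0.20 to 0.33, adjusted p = 0.820). The sign of the Asns difference rested on 1 array, at -0.08 without KIAA1718 shRNA1 replicate 1, and leaving out another array gave 0.03 to 0.17. Shmt2, the mitochondrial serine hydroxymethyltransferase that feeds one-carbon units from serine, had 407, 367 and 324 in KIAA1718 shRNA1 cells, against 473, 494 and 468 in luciferase shRNA cells. Its groups did not overlap, and the difference of -0.38 ± 0.10 (SE) had an adjusted p of 0.0656, or 0.0401 with replicate number as a block. Its 3 further probe sets differed by -0.42, -0.46 and -0.31, none of them past the threshold alone. With the tested probe sets of each gene averaged, Shmt2 passed (-0.39, adjusted p = 0.0351, limma). Mthfd2, which acts after Shmt2 in the mitochondrial folate pathway, differed by 0.21 (adjusted p = 0.381). The serine synthesis genes Phgdh, Psat1 and Psph differed by -0.12, 0.0011 and -0.10, and Cth, which makes cysteine from cystathionine, by -0.22 (adjusted p of 0.486 or higher for these 4).

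Aminoacyl-tRNA synthetases load amino acids onto tRNAs, and none of the 5 passed. Wars, the tryptophan enzyme, had 245, 253 and 206 in KIAA1718 shRNA1 cells, against 283, 297 and 292 in luciferase shRNA cells. The groups did not overlap (difference -0.29, adjusted p = 0.163), and its 3 further probe sets differed by -0.22, -0.51 and -0.32. Gars differed by -0.20 (adjusted p = 0.205) and Sars by -0.16 (adjusted p = 0.420), also without overlap. Aars differed by -0.09 (adjusted p = 0.652), while Nars stood on the other side without overlap, at 886, 936 and 963 in KIAA1718 shRNA1 cells and 847, 820 and 834 in luciferase shRNA cells (difference 0.15, adjusted p = 0.292).

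**Figure D3:**
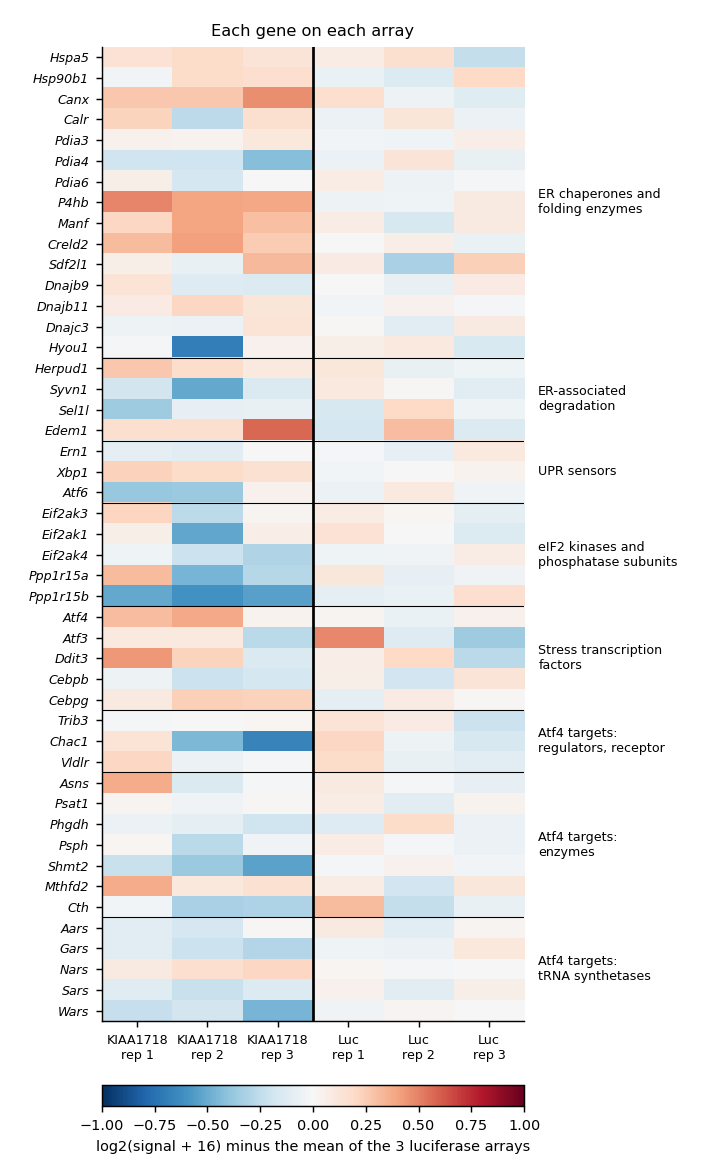
Each of the 47 genes (rows, by role) on each array (columns, KIAA1718 shRNA1 left of luciferase shRNA), coloured by log2(signal + 16) minus the mean of the 3 luciferase arrays. P4hb, Canx, Manf and Creld2 are above the luciferase mean on all 3 KIAA1718 shRNA1 arrays and Ppp1r15b, Shmt2 and Wars below it, while Hyou1, Chac1 and Ppp1r15a vary among the KIAA1718 shRNA1 arrays.

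Set side by side, the ER chaperones had a median log2 difference of 0.10, with 11 of 15 genes above 0, and the Atf4 targets a median of -0.10, with 6 of 15 above 0. All genes tested had a median of 0.00023. Relative to the mean of the luciferase arrays, the per-array median of the chaperones was 0.09, 0.04 and 0.14 in KIAA1718 shRNA1 cells, against -0.0016, -0.04 and -0.02 in luciferase shRNA cells. That of the Atf4 targets was -0.01, -0.17 and -0.04 in KIAA1718 shRNA1 cells, against 0.07, -0.05 and -0.03 in luciferase shRNA cells. The chaperone medians of the groups did not overlap and those of the Atf4 targets did. Within each replicate number, however, the chaperone median was higher and the Atf4 target median lower in KIAA1718 shRNA1 cells. For number 3 the Atf4 target medians lay close, at -0.0354 against -0.0289. The difference between the lists was not tested. Both medians moved with the scaling. With unscaled arrays, where the median of all genes was 0.11, they were 0.20 and 0.04, the Atf4 targets thus changing sign. With median scaling, where the median of all genes was -0.03, they were 0.02 and -0.15. Relative to the median of all genes, the chaperones stood at 0.09 and 0.05 in these settings, and the Atf4 targets at -0.07 and -0.12. Without KIAA1718 shRNA1 replicate 3 or luciferase replicate 2, the chaperone median was 0.04 in either case.

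Genes of the same pathways outside the 48, taken from lists chosen by function, extended the comparison. Of 55 further genes of ER translocation, glycosylation, folding, degradation and export, 6 rose (10.9%, against 2.66% of all genes tested) and 0 fell (against 2.17%), with a median of 0.08. At an unadjusted p under 0.05 (limma), 18 were higher and 4 lower. Groups did not overlap for 20 that were higher (36.4%) and 6 that were lower (10.9%), against 14.5% and 13.4% of all genes tested. Sec24d, a cargo adaptor of the COPII coat that buds vesicles from the ER, had 220, 212 and 219 in KIAA1718 shRNA1 cells, against 143, 156 and 141 in luciferase shRNA cells (difference 0.52 ± 0.10 SE, adjusted p = 0.0207). Rpn1, a subunit of the oligosaccharyltransferase that adds glycans to new chains, had 1582, 1825 and 1547 in KIAA1718 shRNA1 cells, against 1253, 1173 and 1105 in luciferase shRNA cells (difference 0.48, adjusted p = 0.00954). Selenos, a selenoprotein of the degradation channel, rose by 0.44 and Spcs2, a signal peptidase subunit, by 0.40 (adjusted p = 0.0200 and 0.0292). The groups of these 4 genes did not overlap. The remaining 2 were Sec61a1, the pore of the translocon, at 0.36, and Ostc, another oligosaccharyltransferase subunit, at 0.36, both named after their values were seen. The count of 6 was not stable. With the tested probe sets of each gene averaged it was again 6, but Derl2 and Sil1 stood in place of Sec61a1 and Ostc. With cyclic loess scaling of the arrays it was 5, Sec61a1 being lost. With replicate number as a block it was 8, Derl1 and Hspa13 being added, and 1 gene, Kdelr3, was lower. Kdelr3 had the lowest difference of this list, -0.62, without overlap of the groups (adjusted p = 0.0740, or 0.0344 with the block, limma). The count of higher genes was 2 with unscaled arrays or no filter on low values and 1 with median scaling or no intensity trend. It was 2, 3 and 1 without KIAA1718 shRNA1 replicates 1, 2 and 3, and 1, 2 and 0 without luciferase replicates 1, 2 and 3.

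Of 34 further Atf4 target genes tested, 1 rose and 1 fell (2.94% each, against 2.66% and 2.17% of all genes tested), with a median of -0.02. At an unadjusted p under 0.05 (limma), 3 were higher and 7 lower. Groups did not overlap for 5 that were higher (14.7%) and 8 that were lower (23.5%), against 14.5% and 13.4% of all genes tested. With replicate number as a block, Slc7a1 was lower too (adjusted p = 0.0304). Ddit4, an inhibitor of mTORC1 that is also induced by hypoxia and glucocorticoids, had 525, 364 and 356 in KIAA1718 shRNA1 cells, against 284, 265 and 232 in luciferase shRNA cells. Its groups did not overlap (difference 0.62 ± 0.14 SE, adjusted p = 0.0398). Got1, the cytosolic aspartate aminotransferase, fell by 0.44, at 606, 598 and 586 in KIAA1718 shRNA1 cells and 863, 747 and 846 in luciferase shRNA cells (adjusted p = 0.0163). Of 22 cytosolic and mitochondrial heat shock genes, which respond to unfolded proteins outside the ER, 0 rose and 1 fell (4.55%, against 2.17% of all genes tested), with a median of 0.02. At an unadjusted p under 0.05 (limma), 2 were higher and 2 lower. Their groups did not overlap for 5 that were higher (22.7%) and 1 that was lower (4.55%), against 14.5% and 13.4% of all genes tested. The small heat shock gene Hspb1 had 1769, 1379 and 1463 in KIAA1718 shRNA1 cells, against 2102, 2166 and 1966 in luciferase shRNA cells (difference -0.44, adjusted p = 0.0209), and Cryab differed by -0.59 without passing (adjusted p = 0.140, or 0.021 with replicate number as a block).

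**Figure D4:**
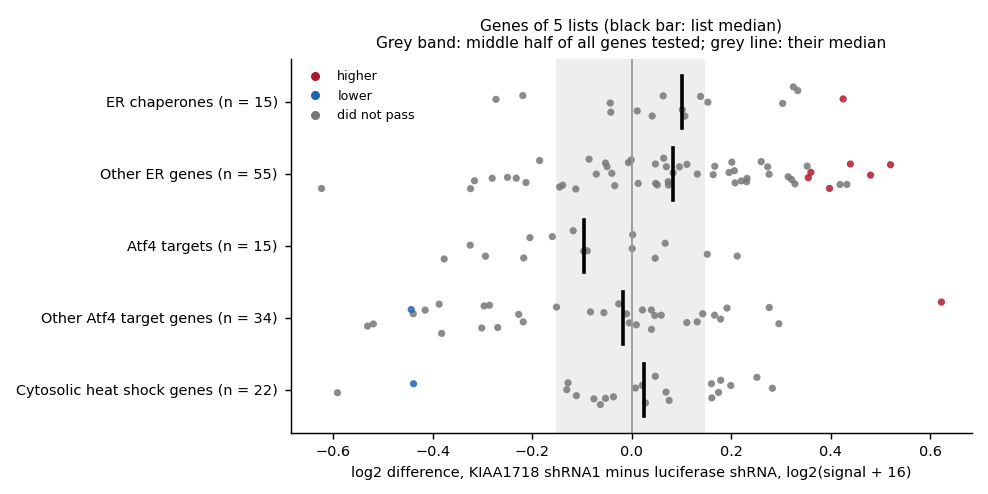
Log2 difference (KIAA1718 shRNA1 minus luciferase shRNA, log2(signal + 16) scale) of each gene of 5 lists, with the list median as a black bar and the range from the first to the third quartile of all genes tested as a grey band. The medians are 0.10 for ER chaperones, 0.08 for other ER genes, -0.10 for Atf4 targets (0.04 with unscaled arrays), -0.02 for other Atf4 target genes and 0.02 for heat shock genes, and all lie inside the band.

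Many of the genes were measured by several probe sets, which gives a second reading from the same RNA but not an independent sample. Of 114 probe sets for the 47 genes, 99 were tested. Of the 52 tested probe sets beside the brightest, in 31 genes, 39 lay on the same side of 0 as the brightest and 13 on the other, and 0 passed the threshold. The further probe sets of Canx, Shmt2, Wars, Atf4 and Ppp1r15b lay on the same side as the brightest. Those of Calr, Edem1 and Herpud1, among others, lay on the other side. Those of Hyou1 (0.18 and -0.04) and Sel1l lay on both sides of 0. P4hb, Manf and Creld2 had 1 probe set each. No gene other than P4hb and Ppp1r15b was called here on any probe set.

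**Figure D5:**
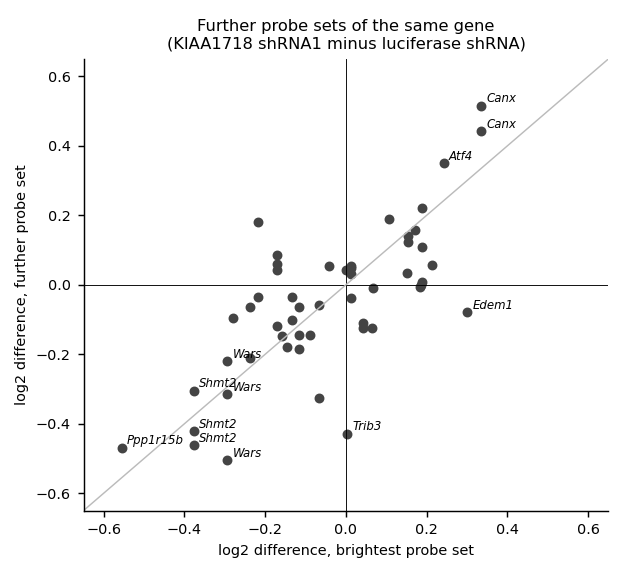
Log2 difference (KIAA1718 shRNA1 minus luciferase shRNA) of each of the 52 further tested probe sets (vertical) against that of the brightest probe set of the same gene (horizontal), with the line of equal values in grey. Points of Canx, Atf4, Shmt2, Wars and Ppp1r15b lie on 1 side of 0 on both axes, and Trib3 has 0.00213 on the brightest and -0.43 on the other.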

How the data were processed

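The deposited values are the authors' linear signal intensity per probe set. GCOS is named per the submitters' processing notes, without a version or settings. The arrays did not share a scale (median deposited intensity 9.58 to 13.3), so they were quantile-normalized. A pseudocount of 16 was added before log2, and the 64 AFFX controls and the dimmest 40% of probe sets by mean were left out, leaving 27022. Groups were compared with limma 3.58.1 in R 4.3.3 (lmFit, eBayes with an intensity trend, two-sided, Benjamini-Hochberg, threshold 0.05), which gave every adjusted p. The number of arrays limits the precision. The fit was also run on simulated data without correlation between arrays of the same number. The outcome is not reported here, so the simulation gives no measure of the precision in these data. Probe sets were named from the platform annotation, with symbols updated through a RefSeq table (34945 with 1 symbol, 932 with several and 9160 unnamed here).

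The members and lists were chosen with earlier results of these data known. Values on every array are given for members past the threshold, the 12 with the largest absolute difference, and Hspa5, Hsp90b1, Xbp1, Atf4, Ddit3, Asns, Trib3 and Chac1; Hyou1, Ppp1r15a, Nars and Cth were added after their values were seen. Of each further list, up to 4 genes past the threshold are named, or the 2 lowest in p if under 2 passed. Other genes named as called only with the block or with probe sets averaged were added after their values were seen. Arrays sharing a number (1, 2 or 3) had correlated deviations from their group's mean (0.203, 0.125 and 0.132, each over 0.1), so the numbers were taken as pairs from the data; no label says what they mark. The fits without the pairing are the main ones. No 2 arrays held identical values. Alternatives covered scaling, pseudocount, filter, probe set choice, variance model, pairing and single arrays left out; those for the further ER genes were chosen after seeing the data.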

Additional observations from a re-analysis of the deposited data

How the results depend on the processing

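The counts of stress response genes that passed were 1 higher and 1 lower, and small changes of processing moved them. The higher count was 0 with median scaling and with no intensity trend, and 3 with the mean of the tested probe sets of a gene. The lower count was 0 with unscaled arrays and with no filter on low values, and 2 with that mean. With replicate number as a block it was 2 higher and 2 lower, the block changing the calls of Canx and Shmt2 and no other call among the 47 genes. Leaving out 1 array gave 1 to 2 higher and 0 to 1 lower. The chaperone median of 0.10 was 0.20 with unscaled arrays and 0.0205 with median scaling, and 0.0418 to 0.122 without 1 array. The median of the Atf4 targets of -0.10 was 0.0378 with unscaled arrays, and -0.145 to -0.0509 without 1 array. Of the further ER genes, 6 higher and 0 lower, the higher count was 8 with the replicate block, 2 with unscaled arrays or no filter, 1 with median scaling or no trend, 0 to 3 without 1 array, and 5 or 6 in the remaining settings, and the lower count was 1 with median scaling, the mean of probe sets or the replicate block, and 0 to 1 without 1 array. The cause was not tested. P4hb passed in 15 of 17 alternatives and Ppp1r15b in 12 of 17, and neither changed sign. Over all genes, 616 passed (55% of them higher), 365 with unscaled arrays (81.6% higher), 580 with median scaling (42.6% higher), 197 with no filter, 392 with no trend, 951 with the mean of probe sets, 1007 with the block, and 161 to 526 without 1 array. Dim genes such as Vldlr, Ddit3 and Atf3 are limited by signals close to the pseudocount.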

Other observations

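Several genes followed the replicate number in both groups. In 6 of the 15 Atf4 targets (40%), Chac1, Vldlr, Asns, Psat1, Psph and Cth, the array numbered 1 was the highest of its group in KIAA1718 shRNA1 cells and also in luciferase shRNA cells. The same held for 1 of 15 ER chaperones, 4 of the 17 remaining genes of the response, 10 of 34 further Atf4 target genes and 13.6% of all genes tested. Following a number was not particular to the Atf4 targets: 4 of 15 chaperones were highest on number 2 in both groups and 3 of 15 on number 3, against 1 and 0 of the Atf4 targets, and 2046 and 1065 of all 12742 genes tested. Cth had 187, 149 and 150 in KIAA1718 shRNA1 cells, against 240, 158 and 180 in luciferase shRNA cells. The summed signal of fibroblast markers was lowest on the arrays numbered 1, at 7567 in KIAA1718 shRNA1 cells and 7906 in luciferase shRNA cells. This pattern was noticed in the data, has no test here, and what the number marks is not given in the labels.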
